A study of Mus musculus with 217 samples.

Results

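Prostaglandins are made and removed by a short chain of proteins, and 10 genes of this chain were followed in the ribosome-bound RNA of brain, lung and heart endothelial cells (ECs). The members, given by name for their place in this chain and with earlier results of these data known, were Pla2g4a, Ptgs1, Ptgs2, Ptges, Ptgis, Ptgds, Tbxas1, Ptger4, Slco2a1 and Hpgd, 10 of the 52550 genes in the files. All 10 passed the filter on low counts in every fit. The mice were C57BL/6J adults of the genotype Cdh5CreERT2/+; Rpl22HA/+, and all groups, controls included, carried both alleles and had received 5 mg of tamoxifen by gavage, given 4 times on alternate days when aged between 4 and 6 weeks. In these mice a Cre enzyme expressed from the VE-cadherin gene Cdh5 and switched on by tamoxifen places an HA tag on the ribosomal protein Rpl22, and an antibody against HA then pulls down ribosomes with the RNA on them, so the tag marks cells in which Cdh5 has been active at the time of tamoxifen. Lipopolysaccharide (LPS), a bacterial cell wall component, was injected intraperitoneally at 10 mg/kg, and tissue was taken 6, 24, 48, 72 and 168 hr later. Control mice injected with PBS stand for 0 hr. Of 98 libraries, 80 were used, which were 28 of brain, 24 of lung and 28 of heart, and each tissue and time point had 4 to 6 libraries except lung at 24 hr, which had 2.

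Prostaglandins are local lipid signals. Phospholipase A2 enzymes release arachidonic acid from membranes, the cyclooxygenases Ptgs1 and Ptgs2 turn it into prostaglandin H2, and separate synthases convert that intermediate into prostaglandin E2, prostacyclin, prostaglandin D2 or thromboxane A2. Receptors such as Ptger4 read the signal, and uptake through Slco2a1 followed by oxidation by Hpgd ends it. In the brain, prostaglandin E2 made in vessels during inflammation is known to take part in fever, prostacyclin from vessel walls keeps platelets from clumping, and the lung is known for clearing prostaglandin E2 from the blood in a single passage.

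The start regions of 4 members are shown because these are the genes on which the results after LPS turn: Ptgs2 and Ptges, which were higher, and Ptgs1 and Hpgd, which were lower. Each is the 250 bases before the RefSeq start of the gene on GRCm38.p6, read 5′ to 3′ on the strand of the gene, at chr1:150099781-150100030 on the plus strand for Ptgs2, chr2:30903298-30903547 on the minus strand for Ptges, chr2:36230176-36230425 on the plus strand for Ptgs1 and chr8:56294302-56294551 on the plus strand for Hpgd. Capitals mark matches to the motifs searched.
Ptgs2: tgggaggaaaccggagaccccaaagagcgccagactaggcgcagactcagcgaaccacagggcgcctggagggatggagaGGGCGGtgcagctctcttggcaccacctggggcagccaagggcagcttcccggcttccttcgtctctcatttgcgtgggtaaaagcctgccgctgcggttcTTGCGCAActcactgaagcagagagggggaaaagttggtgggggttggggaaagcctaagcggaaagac
Ptges: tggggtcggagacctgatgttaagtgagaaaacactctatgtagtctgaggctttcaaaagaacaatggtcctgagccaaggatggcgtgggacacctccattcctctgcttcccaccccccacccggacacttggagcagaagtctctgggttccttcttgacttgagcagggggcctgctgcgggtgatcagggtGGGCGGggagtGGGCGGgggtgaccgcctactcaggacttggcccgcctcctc
Ptgs1: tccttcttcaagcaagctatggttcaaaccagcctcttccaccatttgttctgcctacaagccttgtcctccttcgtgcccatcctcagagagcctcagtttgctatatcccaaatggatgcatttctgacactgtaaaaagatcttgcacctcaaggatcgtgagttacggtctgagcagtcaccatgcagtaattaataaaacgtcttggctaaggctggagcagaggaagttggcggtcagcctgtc
Hpgd: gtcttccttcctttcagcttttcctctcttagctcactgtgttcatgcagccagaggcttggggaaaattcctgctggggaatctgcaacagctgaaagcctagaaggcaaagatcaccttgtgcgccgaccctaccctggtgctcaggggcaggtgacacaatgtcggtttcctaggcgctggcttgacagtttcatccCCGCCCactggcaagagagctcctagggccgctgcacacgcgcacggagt
The motifs were searched on both strands in the 300 bases from 250 before to 50 after the start, and the shares that follow are of the 32851 RefSeq promoter windows of that length in the mouse genome. The C/EBP palindrome TTGCGCAA, present in 0.183% of windows, lay 69 bases before the start of Ptgs2, and a GC box, GGGCGG, present in 35.7% of windows, lay 170 bases before it. Just after that start, at chr1:150100033-150100062 on the plus strand, the 30 bases agtcaccactACGTCACGTGgagtccgctt hold a CRE core, ACGTCA, present in 7.51% of windows, that overlaps an E-box, CACGTG, present in 7.15%. Of the bases printed for Ptgs2, 183 also lie in an exon of the noncoding gene Ptgs2os on the opposite strand. The Ptges stretch held 2 GC boxes and the Hpgd stretch 1 on the opposite strand, while the Ptgs1 stretch held no match to any motif searched. The NF-kB consensus (8.46% of windows), the ISRE-like motif (GAAA, any 2 bases, GAAA; 3.44%) and the TATA motif TATAAA (13.6%) had no match in the letters printed here; in the rest of the window, TATAAA lay 4 bases after the start of Hpgd. A match is a description of the letters alone, and no factor binding was measured.

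The libraries held 284457 to 43417945 counts on genes, the median being 11376800 for lung, 23645900 for brain and 24082200 for heart. All 10 endothelial markers, Cdh5 and Pecam1 among them, were detected in each tissue at each time point, and they summed to 2162 to 4791 CPM, the counts scaled to a common library total, in brain, 10774 to 14981 in lung and 11114 to 12242 in heart at 0 hr. Transcripts of other cell types were also present, for brain at 0 hr 1354 to 5071 CPM of 6 neuronal markers and 510 to 1995 CPM of 6 meningeal markers, and for heart 3397 to 6658 CPM of 6 cardiomyocyte markers. By the file names, a single mouse gave the 6 hr libraries brain replicate 6, heart replicate 5 and lung replicate 4. Its 6 LPS response genes (Sele and Icam1 among them) summed to 805 CPM in brain and 800 CPM in heart. The other 8 libraries of those tissues at 6 hr held 10910 to 16575 CPM. In lung the sum of this mouse was 5681 CPM, against 6589 to 23137 in the other 6 hr libraries and 1667 to 3559 at 0 hr. The term low-response mouse thus rests on brain and heart, and 6 hr changes that were called are given with and without that mouse. In each tissue its library was the only kept 6 hr library of library series 1, a grouping read from the file names. The others at 6 hr were of series 2, so that low response and library series cannot be told apart there. Leaving out the mouse thus also removes series 1 from 6 hr. In lung, 4 libraries (6 hr replicates 1, 2 and 4 and 48 hr replicate 1) held 243 to 2994 CPM of endothelial markers against 8214 to 19265 in the other 20. Xist and Ddx3y marked the 48 hr mice as male and the 72 and 168 hr mice as female in each tissue, so that sex and these time points cannot be told apart.

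At 0 hr the members differed strongly between the tissues, with Ptgds, Ptges and Pla2g4a higher in brain than in both other tissues, Hpgd, Slco2a1, Ptgis and Ptgs1 highest in lung, and Ptger4 highest in heart. Levels are CPM scaled by the trimmed mean of M values (TMM), and changes are log2 ratios from edgeR's quasi-likelihood test, which had library series as its covariate, with p-values adjusted over all genes after Benjamini and Hochberg, called at an adjusted p under 0.05. Of the 10 members, 3 were higher and 5 lower in brain than in lung (64.3% of all genes tested were called, 37.9% higher and 26.4% lower), 3 higher and 4 lower in brain than in heart (54.8%, of which 32% higher and 22.8% lower), and 5 higher and 3 lower in lung than in heart (61.1%, of which 29.9% higher and 31.2% lower). More than every second gene was thus called in each pair, so that a called tissue difference is common in these libraries and says little about the members as a group. By the file names the tissues share mice, which these 0 hr tests treat as independent. With the mouse as a block, the genes called went from 11404 to 12456 for brain against lung. They went from 9709 to 10690 for brain against heart and from 10839 to 11620 for lung against heart. Each member call at 0 hr was kept with that block. In bulk samples such as these, fewer cells of a type and less RNA per cell cannot be told apart.

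**Figure D1:**
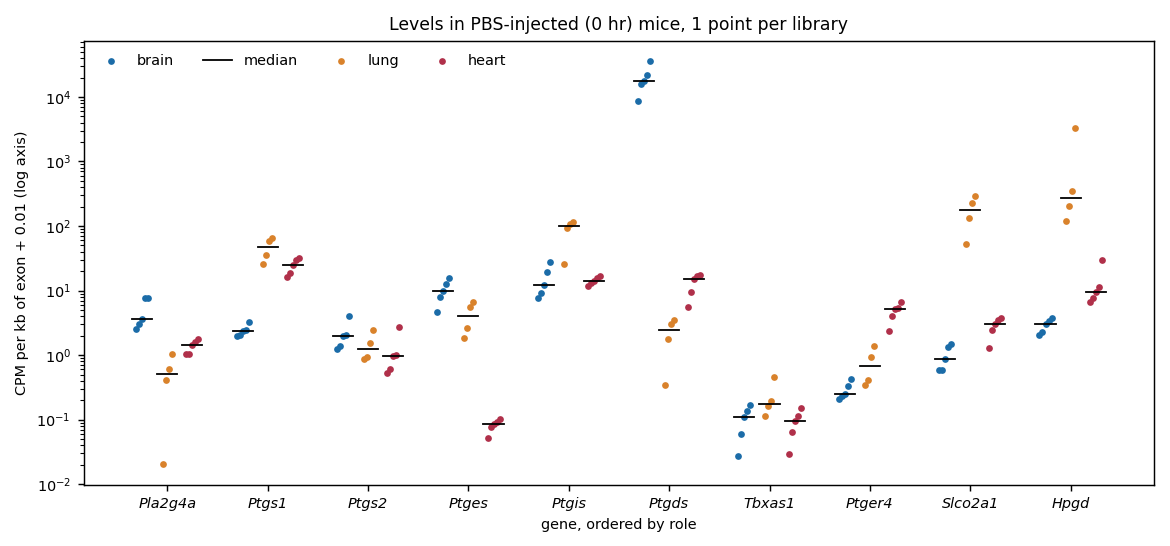
Level of each gene at 0 hr as CPM per kb of exon on a log axis, with 1 point per library (brain n = 5, lung n = 4, heart n = 5) and a line at the median. Ptgds in brain sits apart from every other gene. Hpgd and Slco2a1 have the highest medians in lung, and Ptges in heart lies below all other gene and tissue medians.

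Per kb of exon, the leading members of each tissue were different genes. In brain the median CPM per kb was highest for Ptgds, the lipocalin-type prostaglandin D synthase, at 17739, followed by the prostacyclin synthase Ptgis at 12.4 and the inducible prostaglandin E synthase Ptges at 9.83. In lung the clearance genes led, with Hpgd, the dehydrogenase that begins prostaglandin breakdown, at 275 and the prostaglandin transporter Slco2a1 at 179, ahead of Ptgis at 99.2 and Ptgs1 at 46.9. In heart the cyclooxygenase Ptgs1 led at 25.1, with Ptgds at 15.0 and Ptgis at 14.3 not far below, and Ptges was last at 0.0772. The ranges of those 3 leading heart genes overlapped among the libraries. In lung the order is that of medians, and the range of Slco2a1 per kb overlapped those of Hpgd, Ptgis and Ptgs1.

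Slco2a1 carries prostaglandins into cells, and it held 712, 3946, 3072 and 1784 CPM in the 4 lung libraries, 17.3, 51.1, 33.6, 41.3 and 46.9 CPM in the 5 heart libraries and 19.9, 11.5, 7.85, 17.7 and 7.92 CPM in the 5 brain libraries. All lung libraries lay above all others, with a log2 difference to brain of 7.52 ± 0.58 (SE, adjusted p = 6.55e-08 for brain against lung) and to heart of 5.95 ± 0.54 (adjusted p = 7.57e-07). Hpgd held 346, 205, 579 and 5488 CPM in lung, 11.2, 49.7, 16.2, 13.0 and 19.2 CPM in heart, and 5.03, 3.40, 3.82, 5.75 and 6.34 CPM in brain. Lung again lay above the other tissues in every library (log2 difference lung against heart 5.80 ± 0.82, adjusted p = 3.35e-05), but replicate 4, the library of the female pattern among the 4, stood far above the other 3. Hpgd in brain was below heart in every library, at a log2 ratio of -2.02 ± 0.68 (adjusted p = 0.0201), a call that was lost without brain replicate 1 or 2 (adjusted p = 0.0573 and 0.0579).

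Ptgs1, the cyclooxygenase present in most tissues without a stimulus, held 99.1, 249, 138 and 227 CPM in lung, 63.4, 71.7, 123, 116 and 97.3 CPM in heart and only 7.66 to 12.8 CPM in brain. Brain lay below both other tissues in every library (brain against lung -4.35 ± 0.28, adjusted p = 1.37e-08; brain against heart -3.36 ± 0.27, adjusted p = 5.14e-08), and lung was higher than heart by a log2 ratio of 1.00 ± 0.26 with overlapping libraries (adjusted p = 0.00391, and 0.106 when scaled to total counts). The inducible cyclooxygenase Ptgs2 held 5.59 to 18.7 CPM in brain, 3.99 to 11.0 in lung and 2.37 to 12.4 in heart, and no pair of tissues passed the test. Relative to Ptgs1, Ptgs2 therefore stood differently: within a library the Ptgs2 to Ptgs1 ratio per kb of exon was 0.515 to 2.07 in brain and 0.0304 to 0.0910 in heart, with no overlap.

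Ptges was nearly absent from heart, with 62.1, 49.1, 31.0, 38.7 and 18.6 CPM in brain, 26.4, 21.8, 10.3 and 7.27 CPM in lung, and 0.263, 0.327, 0.359, 0.162 and 0.304 CPM in heart. The heart values lie near what 3 counts stand for in a heart library (0.0790 to 0.361 CPM), so Ptges was at the limit of detection there. The log2 ratio was 6.97 ± 0.49 for brain against heart (adjusted p = 1.35e-08), 5.78 ± 0.48 for lung against heart (adjusted p = 3.54e-07), and 1.18 ± 0.39 for brain against lung, where the libraries overlapped (adjusted p = 0.0150). Pla2g4a, the cytosolic phospholipase A2, held 16.3 to 49.8 CPM in brain, above all lung (0.0659 to 6.64 CPM) and all heart libraries (6.66 to 11.4 CPM), and was called in all 3 pairs, the one against heart (1.52 ± 0.54, adjusted p = 0.0262) being lost without any of 4 single libraries. Ptger4, a Gs-coupled prostaglandin E2 receptor, ran in the opposite order, with 15.7 to 44.4 CPM in heart, 2.19 to 9.27 in lung and 1.31 to 2.77 in brain, and was also called in all 3, that of brain against lung (-1.52 ± 0.42, adjusted p = 0.00569) being lost with scaling to total counts (adjusted p = 0.0776). Ptgis held 237 to 293 CPM in 3 lung libraries and 66.7 in the fourth, against 19.9 to 71.9 in brain and 30.6 to 43.2 in heart, and brain and heart did not pass the test against each other.

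Ptgds held 14447 to 59621 CPM in brain against 0.547 to 5.80 in lung and 9.02 to 28.3 in heart, where it was higher than in lung (log2 ratio lung against heart -2.58 ± 0.65, adjusted p = 0.00341). Outside the endothelium Ptgds is known from leptomeninges, choroid plexus and oligodendrocytes, and across the 28 brain libraries its log2 CPM by library total correlated with the summed meningeal markers at r = 0.780 and, after taking out the mean of each time point, at 0.864; the points share library and depth. The summed fibroblast markers gave 0.886 within time points. The summed oligodendrocyte and choroid plexus markers went the other way, at -0.734 and -0.666 within time points. The part of meningeal RNA in the brain level of Ptgds was not tested. Tbxas1, thromboxane synthase, stayed at or under 4.06 CPM in every library of the 3 tissues at 0 hr and later, and no pair of tissues passed the test for it.

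**Figure D2:**
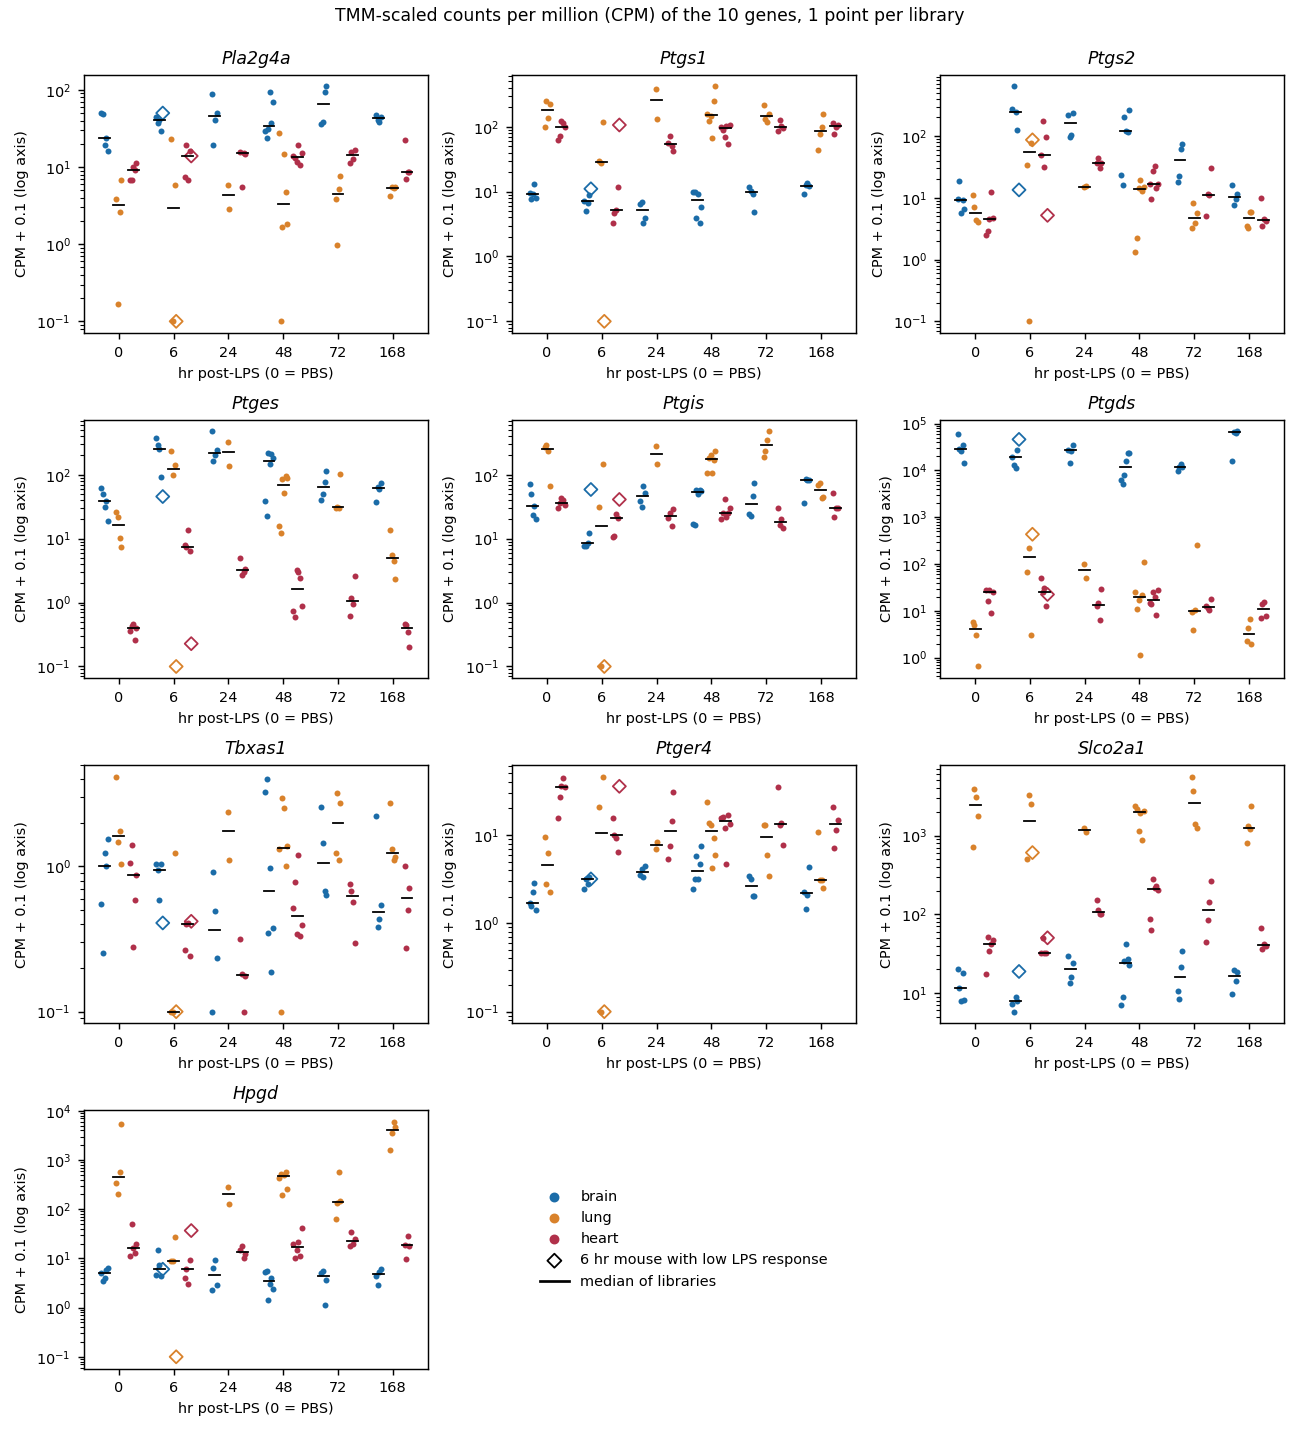
TMM-scaled CPM plus 0.1 of each of the 10 genes on log axes, by hr post-LPS and tissue, with 1 point per library and a line at the median. Open diamonds are the 6 hr mouse with a low LPS response, which in brain and heart sits with the 0 hr libraries for Ptgs2, Ptges and Ptgis while the other 6 hr libraries do not.

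After LPS each of the 10 members passed the test at least once in some tissue. The share of all genes called at least once was not counted. In heart at 6 hr alone 42.8% of all genes were called, so this says little about the members as a group. Ptgs2 and Ptges rose in brain and heart at 6 and 24 hr, Ptgs2 also in brain at 48 hr and Ptges in lung at 6 hr, and Slco2a1 rose in heart at 24 and 48 hr. Ptgs1 in heart, Ptgis in brain and heart, and Hpgd in lung fell at 6 hr. The other calls were Ptgds, higher in lung at 6 hr and lower in brain at 48 and 72 hr, Tbxas1, lower in heart at 6 and 24 hr, and Ptger4 at 48 hr and Pla2g4a at 72 hr, both higher in brain. In brain, 10 of 50 member tests were called, 7 higher and 3 lower, in lung 3 of 50, and in heart 10 of 50, 6 higher and 4 lower. The shares of all genes follow by time point. At 6 hr, 3 of 10 members were called in brain, 2 higher and 1 lower, against 6.44% of all genes (4.21% higher and 2.23% lower). In lung they were 2 higher and 1 lower, against 4.83% (2.56% and 2.27%), and in heart 2 higher and 3 lower, against 42.8% (22.4% and 20.3%), a share in heart that is near the background. Without the low-response mouse these were 4 of 10 in brain (14.3% of all genes), 3 of 10 in lung (3.95%) and 7 of 10 in heart (58.4%). At 24 hr, 2 were called in brain (11.2% of all genes), none in lung (0.375%) and 4 in heart (16.2%). At 48 hr, 3 were called in brain (14.2%), none in lung (0.598%) and 1 in heart (4.19%), and at 72 hr 2 in brain (3.53%) and none in lung (0.193%) or heart (0.275%). At 168 hr no member and, in brain and heart, no gene at all was called by edgeR (0.0117% in lung), although 828 genes in brain and 680 in heart had an unadjusted p under 0.05 and DESeq2 called 2 genes in each. The median log2 change of the members lay between -0.99 and 0.54 over these 15 comparisons, and that of all genes between -0.42 and 0.09, the lowest being lung at 6 hr.

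**Figure D3:**
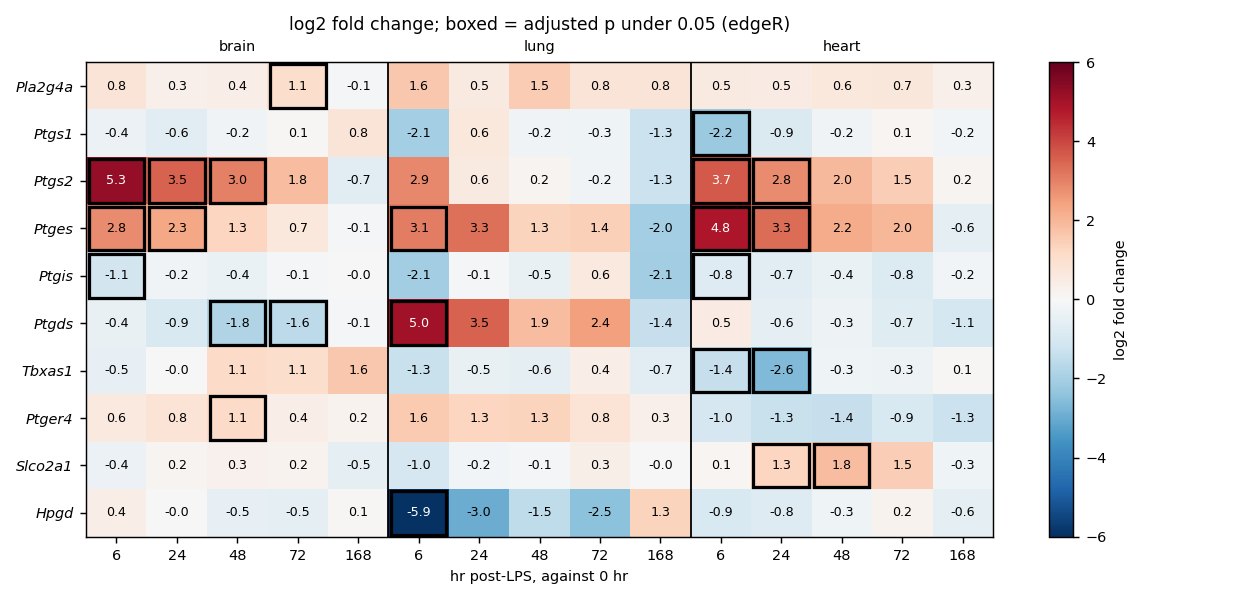
Log2 fold change of each gene against 0 hr by tissue and hr post-LPS, from blue (lower) through white to red (higher), with boxes around adjusted p under 0.05 in edgeR. Boxes gather in the Ptgs2 and Ptges rows at 6 and 24 hr in brain and heart, and none stands at 168 hr.

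Ptgs2, the cyclooxygenase switched on by inflammatory signals, rose most among the brain members. Its brain level at 0 hr was 9.42, 18.7, 5.59, 9.09 and 6.37 CPM, and at 6 hr it was 272, 639, 242 and 126 CPM in replicates 1 to 4 and 13.3 CPM in the low-response mouse. The 4 other 6 hr libraries lay above all 0 hr libraries, at a log2 fold change of 5.29 ± 0.76 with that mouse (adjusted p = 0.000176) and 5.75 without it (adjusted p = 3.09e-08). At 24 hr it held 219, 98.0, 104 and 232 CPM, still above every 0 hr library (3.54 ± 0.72, adjusted p = 0.00298). The 48 hr libraries spread from 15.8 to 265 CPM with a median of 119 (3.02 ± 0.70, adjusted p = 0.00691), and the 2 lowest, replicates 1 and 2 at 23.3 and 15.8 CPM, were also the libraries of that time point with the lowest LPS response sums, 2828 and 1514 CPM against 14412 to 41919. At 72 hr the level was 18.1, 22.3, 60.8 and 73.5 CPM and did not pass (1.83 ± 0.68, adjusted p = 0.157, and 0.0207 without the low-response mouse), and at 168 hr it was 7.53 to 16.3 CPM, within the 0 hr range.

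In heart, Ptgs2 was 2.37, 2.78, 4.41, 12.4 and 4.55 CPM at 0 hr and 48.5, 177, 31.8 and 94.8 CPM at 6 hr, with 5.10 CPM in the low-response mouse. Apart from that mouse the groups did not overlap, and the log2 fold change was 3.66 ± 0.66 (adjusted p = 0.000267) with it and 4.05 without it. At 24 hr the 4 libraries held 30.7 to 44.3 CPM (2.84 ± 0.69, adjusted p = 0.0106, and 0.0654 without replicate 2), and by 48 hr the level of 9.51 to 32.1 CPM no longer passed (1.97 ± 0.65, adjusted p = 0.0849). In lung at 6 hr the values were 33.4, 0, 77.7 and 86.7 CPM against 3.99 to 11.0 at 0 hr. They rested on 56, 0, 2472 and 3 counts, and the change did not pass (2.90 ± 0.89, adjusted p = 0.0534), although without replicate 2 it did (3.32, adjusted p = 0.0105).

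Ptgs1 went the other way in heart. Its heart level at 0 hr was 63.4, 71.7, 123, 116 and 97.3 CPM, and at 6 hr it was 3.20, 4.65, 5.18 and 11.5 CPM in replicates 1 to 4 and 106 CPM in the low-response mouse. The first 4 lay below every 0 hr library and the fifth inside their range, and the log2 fold change was -2.21 ± 0.63 (adjusted p = 0.00825) with that mouse and -4.05 without it (adjusted p = 1.95e-10). At 24 hr the level was 41.7 to 72.3 CPM (-0.85 ± 0.65, adjusted p = 0.350), and from 48 to 168 hr its medians were 94.5 to 103 CPM. The endothelial marker sum of these heart libraries moved as well, from 11114 to 12242 CPM at 0 hr to 3033 to 6163 CPM in 6 hr replicates 1 to 4 and 11475 CPM in the low-response mouse, and the sum of 6 platelet markers was at most 9.44 CPM at 0 hr and as much as 100.3 CPM at 6 hr; their part in the result was not tested. In lung at 6 hr, Ptgs1 was 29.2, 27.6, 117 and 0 CPM against 99.1 to 249 at 0 hr, which did not pass (-2.05 ± 0.68, adjusted p = 0.0729). Without replicate 3, the library of that group whose endothelial markers (10821 CPM) were in the range of the 0 hr libraries, it did (-3.29, adjusted p = 0.000915). In brain Ptgs1 stayed between 3.16 and 13.3 CPM throughout and was never called.

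The ratio of the cyclooxygenases to each other can be read within single libraries and needs no scaling between them. At 6 hr both genes were called in heart, while in brain only Ptgs2 was. Per kb of exon, the Ptgs2 to Ptgs1 ratio in brain went from 0.515 to 2.07 at 0 hr to 12.1 to 111 in 4 of the 6 hr libraries, with 1.03 in the low-response mouse, and it was 12.3 to 51.8 at 24 hr and back at 0.517 to 1.52 by 168 hr. In heart it went from 0.0304 to 0.0910 to 5.21 to 32.2 at 6 hr, with 0.0407 in the low-response mouse, and had come down to 0.517 to 0.746 at 24 hr. Ptgs2 thus exceeded Ptgs1 per kb in those 6 hr libraries of both tissues, and in heart at no other time point.

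Upstream of the cyclooxygenases, Pla2g4a was called once. At 72 hr in brain it held 35.6, 37.8, 93.6 and 111 CPM against 49.8, 49.1, 19.4, 23.4 and 16.3 at 0 hr, with overlapping groups and a log2 fold change of 1.07 ± 0.27 (adjusted p = 0.0222). The 0 hr libraries split by library series, with 49.1 and 49.8 CPM in series 1 and 16.3 to 23.4 in series 2, and the call was lost without that covariate (adjusted p = 0.287), with sex as a further covariate (0.117) and without any of 4 single libraries. At 6 hr the brain value was 0.75 ± 0.26 (adjusted p = 0.0828), and 0.96 without the low-response mouse (adjusted p = 0.0105).

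Ptges, the prostaglandin E synthase that works with Ptgs2 in inflammation, was the member called in all 3 tissues. In brain it went from 62.1, 49.1, 31.0, 38.7 and 18.6 CPM at 0 hr to 380.4, 291, 254 and 93.3 CPM at 6 hr, with 45.5 CPM in the low-response mouse. All 4 responding libraries lay above the 0 hr range, and the change was 2.84 ± 0.53 (adjusted p = 0.00134), or 3.27 without that mouse. It stayed up at 24 hr at 475, 161, 201 and 240.5 CPM (2.34 ± 0.53, adjusted p = 0.00674), and at 48 hr the libraries ran from 22.3 to 221 CPM and did not pass (1.31 ± 0.51, adjusted p = 0.0812). In heart, where it had been barely detected, Ptges reached 7.85, 7.25, 13.6 and 6.42 CPM at 6 hr, with 0.128 CPM in the low-response mouse (4.85 ± 0.76, adjusted p = 6.68e-05, and 5.35 without that mouse), and 2.59 to 4.94 CPM at 24 hr (3.33 ± 0.77, adjusted p = 0.00762). Even so, its highest heart library stayed below the lowest brain library. In lung the 6 hr values were 234, 100.4, 143 and 0 CPM against 26.4, 21.8, 10.3 and 7.27 at 0 hr, where the 0 comes from replicate 4, in which 3 counts stand for 86.7 CPM. The change was 3.08 ± 0.77 (adjusted p = 0.0197, and 3.58 without that library, which is of the low-response mouse), it was lost without 0 hr replicate 3 (adjusted p = 0.0859) and with scaling to total counts (0.0931), and the sum of 6 neutrophil markers in these lung libraries went from 28.1 to 157 CPM at 0 hr to between 0 and 2673 CPM at 6 hr, a part in the result that was not tested. Both 24 hr lung libraries, at 319 and 135 CPM, were above all 0 hr libraries without passing the test (3.29 ± 0.91, adjusted p = 0.162).

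**Figure D4:**
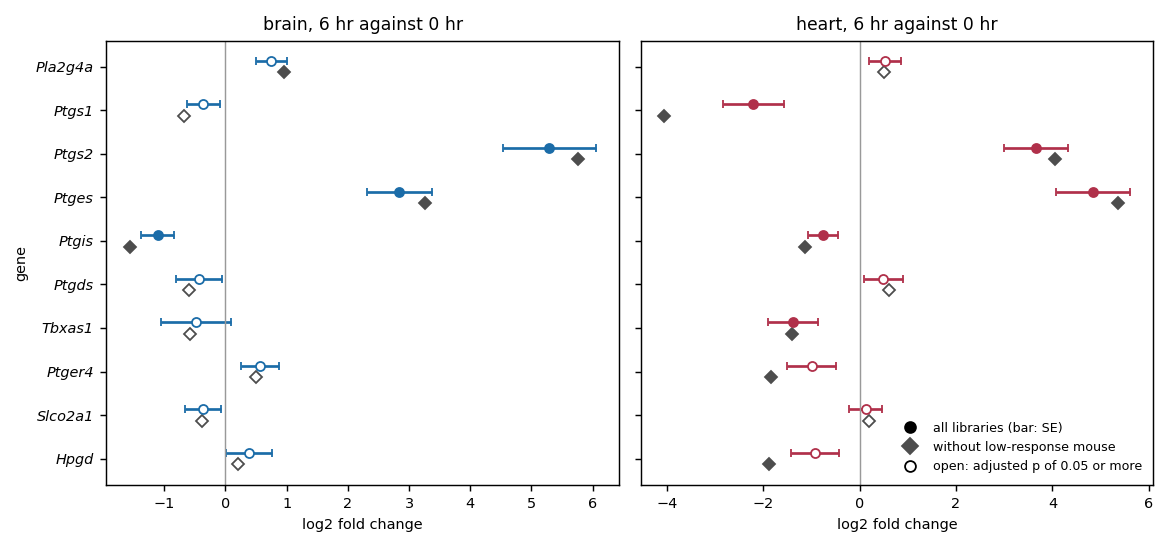
Log2 fold change at 6 hr against 0 hr in brain and heart with all libraries (circles, bars are SE) and without the low-response mouse (grey diamonds); open symbols have an adjusted p of 0.05 or more. Leaving the mouse out moves Ptgs1 in heart from -2.21 to -4.05 and closes the symbols of Ptger4 and Hpgd in heart and Pla2g4a in brain.

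The prostacyclin synthase Ptgis fell at 6 hr in both brain and heart. In brain it held 71.9, 50.6, 23.7, 31.8 and 19.9 CPM at 0 hr and 7.47, 7.51, 8.46 and 12.2 CPM at 6 hr. The low-response mouse held 58.6 CPM, so that only its library overlapped the controls. The 0 hr values of 71.9 and 50.6 CPM are of library series 1, as is that mouse. The other 0 hr and 6 hr values are of series 2. The log2 fold change was -1.11 ± 0.27 (adjusted p = 0.0117), -1.56 without that mouse (adjusted p = 6.29e-05) and -1.13 with an adjusted p of 0.480 when library series was not a covariate, and the call was also lost without 6 hr replicate 1 (adjusted p = 0.0517) or 3 (0.0504). In heart it went from 30.6 to 43.2 CPM to 10.4, 10.9, 24.1 and 20.9 CPM with 40.9 CPM in the low-response mouse, a call at the threshold (-0.76 ± 0.31, adjusted p = 0.0485) that was lost without any of 8 of the 10 libraries and reached -1.14 without that mouse (adjusted p = 0.00252). In lung it held 31.0, 0, 147 and 0 CPM at 6 hr against 272, 293, 237 and 66.7 CPM, which did not pass (-2.08 ± 0.81, adjusted p = 0.124), and it was -4.11 without replicate 3 (adjusted p = 0.000795). Marker sums moved as well: in brain the meningeal sum had a median of 1052 CPM at 0 hr and was 122 to 429 CPM in 6 hr replicates 1 to 4 and 1636 in the low-response mouse, and the endothelial sum was 1223 to 2368 CPM in those 4 and 3090 in that mouse, against 2162 to 4791 at 0 hr. Their part in the result was not tested, nor was that of the lower endothelial sum in heart given above.

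Ptgds was lower in brain at 48 and 72 hr. At 48 hr the 6 libraries ran from 5215 to 23900 CPM with a median of 11880, overlapping the 14447 to 59621 CPM of 0 hr (-1.79 ± 0.38, adjusted p = 0.00431, and 0.106 without library series as a covariate). At 72 hr the level was 9642, 11610, 14031 and 11714 CPM, below every 0 hr library (-1.56 ± 0.41, adjusted p = 0.0312), but this call was lost with DESeq2 (adjusted p = 0.220), with sex as a covariate (0.181) and without any of 6 single libraries. By 168 hr 3 libraries stood at 64771 to 68320 CPM and replicate 1 at 15646. The meningeal marker sum was 510 to 1995 CPM at 0 hr, 273 to 1455 at 48 hr, 431 to 1215 at 72 hr and 803 to 2141 at 168 hr, and its part in the result was not tested. In lung at 6 hr, Ptgds held 68.0, 219.7, 2.95 and 433 CPM against 0.547 to 5.80 at 0 hr (5.05 ± 1.15, adjusted p = 0.0104). The 3 high values were the 3 libraries low in endothelial markers, in which 114, 151 and 15 counts lay on Ptgds, while replicate 3 stayed at the 0 hr level, and without the low-endothelial libraries the log2 change was 0.02 (adjusted p = 1); without the low-response mouse alone it was 4.51 (adjusted p = 0.0340). Markers of other organs moved with it: 5 astrocyte markers summed to 3.87 to 10.9 CPM in lung at 0 hr and 3.56 to 69.5 at 6 hr, and 6 cardiomyocyte markers to 36.6 to 159 and 35.2 to 574 CPM. Their part in the result was not tested. Tbxas1 was called lower in heart at 6 hr (-1.38 ± 0.52, adjusted p = 0.0369, and -1.39 without the low-response mouse, adjusted p = 0.0459) and 24 hr (-2.63 ± 0.68, adjusted p = 0.0146), from 0.179 to 1.31 CPM to 0.141 to 0.319 and 0 to 0.215 CPM. The first call was lost without any of 5 single libraries and the second without 24 hr replicate 2 (adjusted p = 0.0807). These values are near the level of 3 counts, so the size of the change is uncertain. Across the 28 heart libraries Tbxas1 followed the summed macrophage and microglia markers (r = 0.752). The same correlation was 0.743 across the 28 brain libraries and 0.0599 across the 24 lung libraries. The part of macrophage RNA in the Tbxas1 calls was not tested.

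**Figure D5:**
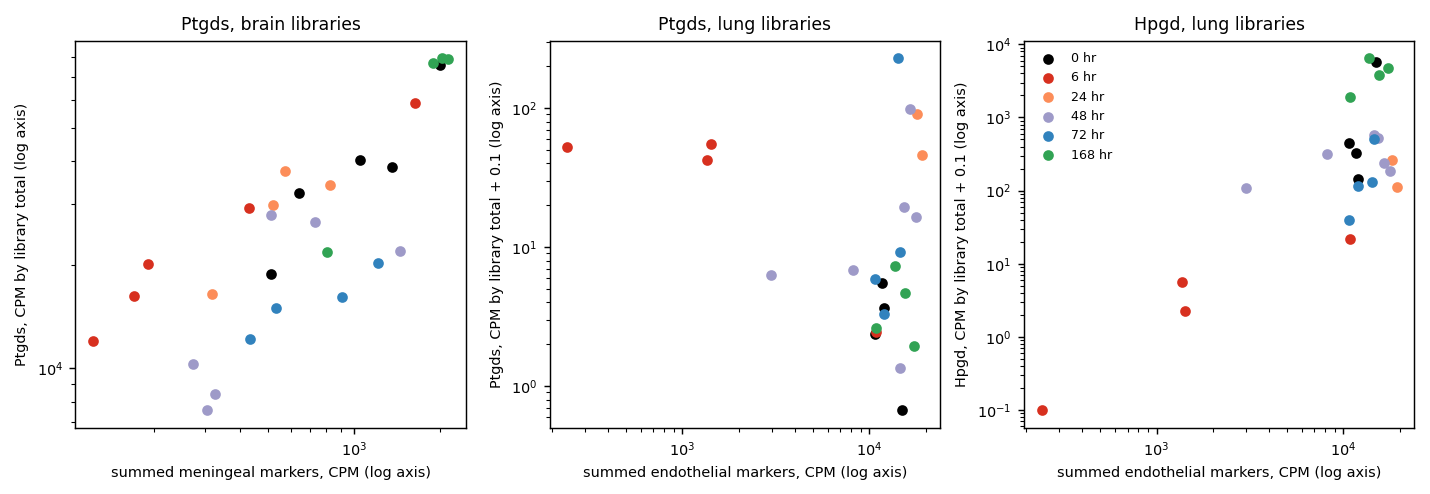
CPM by library total of Ptgds in 28 brain libraries against the summed meningeal markers, and of Ptgds and Hpgd in 24 lung libraries against the summed endothelial markers, on log axes, coloured by hr post-LPS. Of the 4 lung libraries of 6 hr, 3 lie to the left, below 3000 CPM of endothelial markers, where Ptgds is high and Hpgd low, and the other 6 hr library has Ptgds at the 0 hr level and Hpgd at 21.9 CPM.

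Of the genes that read, take up and break down prostaglandins, Hpgd in lung changed most. It held 346, 205, 579 and 5488 CPM at 0 hr and 8.95, 8.73, 27.6 and 0 CPM at 6 hr, from 15, 6, 879 and 0 counts, and the groups did not overlap. The log2 fold change was -5.93 ± 1.01 (adjusted p = 0.00160) and stayed called without any single library, at -5.66 without the low-response mouse (adjusted p = 0.0035). In replicate 3, whose endothelial marker sum of 10821 CPM was in the range of the 0 hr libraries (10774 to 14981), the level of 27.6 CPM was still below the lowest 0 hr library at 205 CPM. With that single 6 hr library and no low-endothelial ones the change was -4.64, and did not pass (adjusted p = 0.254). At 24 hr Hpgd was 289 and 126 CPM, from 48 to 72 hr it ran from 63.9 to 579 CPM, and at 168 hr it was 1622, 3524, 6006 and 4657 CPM, and none of these passed the test. In heart it went from 11.2 to 49.7 CPM to 3.98, 5.85, 2.96 and 9.24 CPM at 6 hr with 36.7 CPM in the low-response mouse, which passed only without that mouse (-1.88, adjusted p = 0.00165, against -0.93 ± 0.50, adjusted p = 0.131, with it).

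Slco2a1 rose in heart on a later schedule than Ptgs2 and Ptges. It was 17.3, 51.1, 33.6, 41.3 and 46.9 CPM at 0 hr, 31.7 to 50.1 CPM at 6 hr, and 152, 114, 101 and 99.4 CPM at 24 hr, when all libraries were above the 0 hr range (1.29 ± 0.38, adjusted p = 0.0263). That call was lost without 24 hr replicate 2 (0.93, adjusted p = 0.201) and, at adjusted p from 0.0565 to 0.0612, without any of 3 others. At 48 hr the 6 libraries ran from 63.4 to 284 CPM with a median of 208, again all above 0 hr (1.83 ± 0.36, adjusted p = 0.00438), and this call held without each library in turn. At 72 hr the values were 44.3, 83.5, 144 and 263 CPM (1.49 ± 0.38, adjusted p = 0.100), and at 168 hr 35.8 to 65.8 CPM. In TMM-scaled CPM the heart level at its highest stayed below the lowest lung library of any time point, 501 CPM. This order depends on the scaling, whose TMM factors ran from 0.122 to 1.18 in lung. By library total, lung at 6 hr fell to 73.8 CPM, from 21 counts, and heart at 48 hr reached 289 CPM. In lung Slco2a1 was not called at any time.

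Ptger4 was called higher in brain at 48 hr, where 6 libraries ran from 2.33 to 7.48 CPM with a median of 3.83 against 1.31 to 2.77 at 0 hr (1.14 ± 0.32, adjusted p = 0.0197, and 0.0591 with limma-voom), a call also lost without any of 3 single libraries. In heart at 6 hr it was 15.6, 10.0, 9.18 and 6.33 CPM with 35.5 CPM in the low-response mouse, against 15.7 to 44.4 at 0 hr. This did not pass with that mouse (-0.99 ± 0.50, adjusted p = 0.112) and did without it (-1.84, adjusted p = 0.00168). The heart medians at 24 to 168 hr, 10.9 to 14.4 CPM, were below the 34.6 CPM of 0 hr, with no call.

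Whether the tissues responded differently was tested by the difference of their log2 changes in a single fit of the 80 libraries, and 7 of 150 member tests were called. By the file names the 80 libraries come from 29 mice, so that tissues share mice, which this fit treats as independent. With the mouse as a block, chosen after seeing the data, 13 were called: 6 of the 7 stayed, Ptgds at 48 hr was lost, and 7 were added. At 6 hr, 2 of 10 members differed between brain and lung (12.6% of all genes), none between brain and heart (0.795%) and 3 between lung and heart (16.4%). Without the low-response mouse the counts were 3 (11.9%), 2 (7.99%) and 4 (17.1%). Hpgd changed less in brain than in lung by 6.11 ± 0.95 (adjusted p = 1.98e-05) and fell more in lung than in heart, at a difference of -4.76 ± 0.92 (adjusted p = 0.000321), or -3.76 with an adjusted p of 0.122 without the lung libraries low in endothelial markers; the difference between brain and lung stayed called without them. Without the low-response mouse the differences of Hpgd were 5.90 (adjusted p = 3.91e-05) and -3.60 (adjusted p = 0.00489). Ptger4 differed between lung and heart at 6 hr (2.88 ± 0.83, adjusted p = 0.0126, and 3.90 without that mouse) and at 48 hr (2.81 ± 0.75, adjusted p = 0.0400), where 1.09% of all genes were called. The latter was kept in 9 of 13 alternatives. It was lost with scaling to total counts (adjusted p = 0.194), limma-voom, no covariate for library series, and library series shared by the tissues. Ptger4 in the lung libraries of 6 hr ran from 0 to 45.8 CPM, from 0 to 1457 counts, against 2.19 to 9.27 CPM at 0 hr. It was never called within lung, nor in heart at 6 hr with all libraries. The 6 hr differences of Ptgds, -5.77 for brain minus lung and 4.92 for lung minus heart, were -5.12 and 4.16 without that mouse and -0.46 and -0.43 without the low-endothelial lung libraries, and at 48 hr that of brain minus lung was -3.75 ± 0.99 (adjusted p = 0.0318; 1.39% of all genes), a call lost with the mouse block (-3.09, adjusted p = 0.0844), scaling to total counts (0.0717) and limma-voom (0.25). For Ptgs2 and Ptges no pair of tissues passed this test; for Ptgs2, brain minus lung passed at 6 hr without the low-response mouse (2.80, adjusted p = 0.0341) and at 48 hr with the mouse block (2.76, adjusted p = 0.0426). For Ptgs1 at 6 hr, brain minus heart was 1.91 ± 0.70 (adjusted p = 0.196) with all libraries, 2.69 with the mouse block (adjusted p = 0.00394) and 3.64 without the low-response mouse (adjusted p = 7.77e-06). At 24 hr (0.427%, 0.0772% and 0.264% of all genes for the 3 pairs), 72 hr (0.414%, 0.323% and 0.445%) and 168 hr (0.0818%, 0 and 0.0409%) no member was called, and at 48 hr brain minus heart (0.182%) had none. With the mouse block, 5 were called at 168 hr: Hpgd (-3.02 for brain minus lung, adjusted p = 0.0400, and 3.74 for lung minus heart, 0.00806), Ptgis (2.39, 0.0313, and -2.25, 0.0397) and Ptges (2.21 for brain minus lung, 0.0388). Over all genes that block took the calls at 168 hr from 18 to 1186 for brain minus lung and from 9 to 1243 for lung minus heart.

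Other genes of the pathway were called as well. Of a list of 30 other prostaglandin genes, 25 were tested in brain at 6 hr, and none was higher and 3 lower (4.21% and 2.23% of all genes): Ptger1, a prostaglandin E2 receptor (-1.18, adjusted p = 0.0345), Abcc4, which exports prostaglandins (-0.99, adjusted p = 0.0192), and Zadh2, a prostaglandin reductase (-0.66, adjusted p = 0.00528). In lung 22 were tested and 2 were lower (2.27% of all genes), the thromboxane receptor Tbxa2r (11.0 to 20.6 CPM at 0 hr and at most 3.55 at 6 hr) and the prostaglandin F receptor regulator Ptgfrn (580.5 to 1765 CPM and 57.8 to 489), whose call was lost without the low-response mouse (-2.08, adjusted p = 0.0597). In heart 6 of 22 were higher and 6 lower, near the 22.4% and 20.3% of all genes. Ptger2, the other Gs-coupled prostaglandin E2 receptor, rose from at most 0.169 CPM to as much as 4.03 (4.16, adjusted p = 0.000226), and Pla2g4c, a phospholipase A2, from at most 0.175 to as much as 2.28 (3.61, adjusted p = 0.000459). Tbxa2r fell from 29.6 to 40.3 CPM to 0.387 to 3.66 in replicates 1 to 4 and 27.6 in the low-response mouse (-2.53, adjusted p = 0.0101, and -4.48 without that mouse). The other calls of the list named here stayed called without it. The medians of the list at 6 hr were -0.20 in brain, -0.70 in lung and 0.02 in heart, against 0.00, -0.42 and -0.05 for all genes.

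The leukotriene and lipoxygenase branch, which uses the same arachidonic acid, was followed by 10 genes. At 6 hr 1 of 9 tested was lower in brain (2.23% of all genes), none of 10 called in lung (4.83%) and 3 of 8 lower in heart (20.3%). Alox12, a lipoxygenase, was lower in brain (-2.02, adjusted p = 0.00402) and in heart (-1.85, adjusted p = 0.0105), and in heart Cysltr1, a cysteinyl leukotriene receptor (-2.91, adjusted p = 0.00441, and -4.88 without the low-response mouse), and Lta4h, the leukotriene A4 hydrolase (-1.10, adjusted p = 0.000105), were lower. Alox12 was also called lower in brain at 24 and 48 hr. Of the 9 tested, Alox5, Alox5ap and Ltb4r1 were called higher in brain at 48 hr (14.2% of all genes called). Alox5, Alox5ap and Ltc4s were called higher in brain at 72 hr (3.53%). The sum of 7 macrophage and microglia markers in these brain libraries was 42.6 to 247 CPM at 48 hr and 61.3 to 218 at 72 hr against 24.1 to 102 at 0 hr, and its part in these calls was not tested.

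Among 8959 genes with a mean of at least 3 log2 CPM, those whose 18 tissue and time point means were most like the mean profile of a member were named for each. For Ptgs2 they were Cp (r = 0.904), Cd14 (0.886) and Steap4 (0.875), and for Ptges Rhou (0.973), Nupr1 (0.961) and Dtx4 (0.944). Slco2a1 was most like Prx (0.965), Frrs1 and Hoxb4, Hpgd like Nectin3 (0.945), Ankrd44 and Dok1, and Ptgs1 like Mxd4 (0.940), Hdac7 and Fam53b. Ptgds ran with Cyfip2 (0.980), Slc17a7 and Clip3, the second of them a vesicular glutamate transporter of neurons. For Ptgis they were Bcat2 (0.964), Pih1d1 and Commd5, for Ptger4 Ptbp3 (0.930), Rftn1 and Stk10, for Pla2g4a 5730455P16Rik (0.965), Ccn3 and Scara3, and for Tbxas1 Cuta (0.916), Mettl17 and Fam110a. These are descriptions over 18 group means that share tissues, and profiles set by tissue alone give high values.

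By the annotation, Ptgs2 and Pla2g4a are neighbours on chromosome 1, 138740 bases apart (Ptgs2 at chr1:150100031-150108227 on the plus strand, Pla2g4a at chr1:149829618-149961290 on the minus strand), and 4 members lie on chromosome 2. These are Ptgs1 (chr2:36230426-36252272), Ptges (chr2:30889471-30929863), Ptgis (chr2:167191805-167240604) and Ptgds (chr2:25466709-25470046). The neighbours did not move alike, with Ptgs2 up by 5.29 and Pla2g4a at 0.75 in brain at 6 hr. The other genes are Tbxas1 (chr6:38875404-39084585), Ptger4 (chr15:5206661-5244187), Slco2a1 (chr9:102988712-103096002) and Hpgd (chr8:56294585-56321043). Exons of Ptgs1, Ptgis, Tbxas1, Ptger4 and Slco2a1 share 148, 156, 144, 1097 and 104 bases with genes on the opposite strand, and whether the counting used strand is not given in the sources used here, so reads on those bases cannot be assigned with certainty.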

How the data were processed

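Ribosome-bound RNA was pulled down with an antibody against HA and sequenced. Per the labels and the study's methods, the authors aligned reads to mm10 with STAR 2.4.2 and deposited HTSeq 0.6.1 counts per gene; the annotation release and strand setting are not given in the sources used here. Here the 217 runs were summed into 98 libraries, and 18 with under 3% of reads on genes (1.73 to 2.75%) were left out, all of library series 3, a number read from file names. edgeR 4.0.16 in R 4.3.3 was fitted to all genes with TMM, a filter by group, a two-sided quasi-likelihood test and library series as covariate. The fits were within a tissue against 0 hr, between tissues at 0 hr, and for the difference of changes. A prior count of 2 entered only the log2 CPM levels. All members were named, plus, of the other lists, up to 3 genes per tissue with the largest called change at 6 hr. Members and lists were chosen with earlier results of these data known, and the LPS response list and the alternatives on the low-response mouse, low-endothelial lung libraries, sex, total counts and, for differences between tissues, the mouse block after seeing the data. Data were also simulated with the same spread for every gene, no library series effect and changes only in genes with enough counts. There 131 of 200 changed genes were recovered with 5 false calls for brain at 6 hr. At 6 hr it was 104 with 5 false calls for lung and 136 with 7 for heart. These settings are simpler than the real libraries, so the recovery in the real libraries is not known. Separate mice are not stated for each library, so p-values measure only the spread between these samples, and 3 counts, the floor used, stand for 0.0893 to 86.7 CPM in lung.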

Additional observations from a re-analysis of the deposited data

Results flagged for a closer look

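Of 170 groups of 4 to 6 libraries, 14 held a library far from the others of its group by Dixon's ratio, where chance gives about 8.5. In brain, Ptgds at 168 hr was 15646 CPM in replicate 1 against 64771 to 68320 in the others, and Ptgis was 35.5 CPM in the same library against 81.9 to 86.9. Ptgis at 6 hr in brain was 58.6 CPM in replicate 6, the low-response mouse, against 7.47 to 12.2. In heart, Ptges at 6 hr was 0.128 CPM in replicate 5, the same mouse, against 6.42 to 13.6, Ptger4 at 48 hr was 4.64 CPM in replicate 4 against 11.8 to 16.9, and Pla2g4a at 24 hr was 5.39 CPM in replicate 2 against 14.7 to 15.5. In lung, Ptgis at 0 hr was 66.7 CPM in replicate 4 against 237 to 293, and Ptges at 72 hr was 102 CPM in replicate 5 against 29.9 to 31.3. At 168 hr lung replicate 1 held 10.6 CPM of Ptger4 against 2.44 to 3.01 and 4.07 CPM of Pla2g4a against 5.30 to 5.44. In lung at 6 hr, Ptges was 0 in replicate 4 and Ptgs2 0 in replicate 2, and Tbxas1 was 1.13 CPM in replicate 3, the deepest of the group at 40128330 counts, and 0 in the others, and at 48 hr Tbxas1 was 0 in replicate 2.

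The response differed between tissues by a test of the difference for 7 results. At 6 hr these were Ptgds (-5.77 for brain minus lung and 4.92 for lung minus heart), Hpgd (6.11 and -4.76) and Ptger4 (2.88 for lung minus heart). At 48 hr they were Ptgds (-3.75 for brain minus lung) and Ptger4 (2.81 for lung minus heart).

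The 18 libraries left out for few reads on genes also held member counts whose 95% interval lay above that of their tissue's left-out 0 hr library; these intervals cover counting error only. They included Ptgs1 at 41.3 CPM in lung and 30.6 CPM in heart at 48 hr (0 and 4.76 at 0 hr), Ptges at 38.5 CPM and Ptgds at 1728 CPM in brain at 6 hr (0 and 1184), Ptgis at 13.0 CPM and Ptger4 at 29.1 CPM in lung at 168 hr (both 0), Slco2a1 at 187 CPM in lung at 6 hr (0) and Hpgd at 312 CPM in lung at 72 hr (0). The left-out lung library of 0 hr held 2.64 CPM of endothelial markers, so its 0 values are no baseline. By library total, the kept lung libraries of 0 hr held 93.3 to 237 CPM of Ptgs1 and 69.8 to 256 of Ptgis. They held 1.92 to 8.73 CPM of Ptger4, 670 to 2799 of Slco2a1 and 145 to 5742 of Hpgd. Among the lung values above, only that of Ptger4 exceeded the kept range.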

How the results depend on the processing

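The number of member calls after LPS was 10 each for brain and heart and 3 for lung, 23 at 0 hr and 7 for differences between tissues. Without each library in turn it was 8 to 11 in brain, 1 to 5 in lung, 7 to 12 in heart and 21 to 24 at 0 hr; this was not run for the differences between tissues. DESeq2 gave 7 in lung and 13 for the differences, no filter on low counts gave 8 in lung, 18 in heart and 25 for the differences, and for the differences leaving out the low-response mouse gave 12 and the mouse block 13; the cause was not tested. The Ptgds difference of lung minus heart at 6 hr reversed to -0.43 without the lung libraries low in endothelial markers. Leaving out library series 3 is the same as the analysis reported, since the 3% rule had removed it. The replicate numbers were not used to pair the samples in the main fits. The deviations of same-numbered libraries correlated from -0.656 to 0.754. Some correlations were negative in every comparison but heart at 24 hr against 0 hr, where they ran from 0.0638 to 0.371. This check cannot decide pairing between tissues, which by the file names share mice. With the replicate block 322 of 330 member tests kept their call, 5 lost it and 3 gained it. The lost calls were Ptges at 24 hr (1.94, adjusted p = 0.0863), Ptger4 at 48 hr (1.04, 0.0657) and Ptgds at 72 hr (-1.41, 0.0996) in brain, and Tbxas1 at 6 hr (-1.26, 0.0743) and Ptgs2 at 24 hr (2.86, 0.0527) in heart, all by edgeR. Depth limits lung at 6 hr most, where 3 counts stand for 0.0942 to 86.7 CPM.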
